A study of Mus musculus with 10 samples.

Results

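Complex I (NADH:ubiquinone oxidoreductase) was followed through all nuclear genes whose symbols begin with Nduf, pseudogene symbols left out, with 1 transcript kept per symbol (the one with the largest count summed over the libraries). This gave 45 genes of 24063 symbols, kept from 56 Nduf transcripts: 7 core subunits, 29 accessory subunits, 7 assembly factors (Ndufaf1 to Ndufaf7) and 2 genes, Ndufa4 and Ndufa4l2, that carry the name but are placed elsewhere. All 45 passed the filter on low counts that left 13880 genes for testing. Ndufb1 and Ndufaf8, which belong to the same roles, and the subunits encoded by mitochondrial DNA were not analysed here.

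RNA from quadriceps muscle was sequenced in 5 libraries of mice given a supplement named 1C-MIM in their drinking water for 1 to 3 months and in 5 libraries of Control mice on the animal facility's water. All were wild-type C57BL mice of 17 to 20 months. Both groups carried an injury of the tibialis anterior, while the quadriceps used for RNA were uninjured. The sources used here do not give the content of 1C-MIM, nor the sex, cage or litter of an animal, and n counts libraries that the deposited names number as separate animals.

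Complex I takes electrons from NADH in the mitochondrial matrix, passes them along a chain of iron-sulfur clusters to ubiquinone and pumps protons through its membrane arm. The core subunits hold the catalytic centres and are shared with bacterial enzymes, whereas the accessory subunits form a shell around them that is needed for assembly and stability. Assembly factors bind intermediates and leave before the enzyme is complete. Skeletal muscle, with its high demand for ATP, holds much of it, and human mutations in many of these genes cause mitochondrial disease.

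The 1C-MIM libraries held 29108462 to 31771296 counts after 1 transcript per symbol was kept, and the Control libraries 28521254 to 30595120. Fast myofibre markers dominated every library, with summed levels of 186823 to 212566 counts per 1000000 (CPM) over 9 markers in 1C-MIM and 178451 to 207624 CPM in Control, and no marker list had a member at 0 reads in all libraries. Short transcripts differed between libraries. The slope of each library's deviation on log2 transcript length, taken over genes that are not members, was -0.03, 0.12, 0.06, 0.08 and 0.01 in 1C-MIM 1 to 5, against -0.01, -0.01, -0.03, -0.05 and -0.14 in Control 1 to 5. A negative slope means that short transcripts were high in that library. Control 5 stood apart on the low side, and 1C-MIM 1 was the only 1C-MIM library with a slope below 0. Since 28 of the 45 genes have transcripts under 1000 bases, each result below is given with these 2 libraries and the length trend in view.

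In 1C-MIM muscle some complex I genes were lower and none was called higher. Of 45 genes, 10 were lower and 0 higher by edgeR's quasi-likelihood test at a threshold of 0.05 on the p adjusted over all 13880 genes (Benjamini-Hochberg), which is 22.2% of the members lower; among all genes tested, 11.8% were lower and 9.78% higher. At an unadjusted p under 0.05, 24 members were lower and 0 higher, and DESeq2 and limma-voom gave 14 and 12 lower and 0 higher. For these counts, and for those at an unadjusted p below, no share over all genes tested is given. Scaled by library totals alone, 31 were lower and 0 higher, but then all genes split into 606 higher and 2896 lower, where TMM scaling gave 1357 and 1642. The fitted log2 fold changes ran from -0.36 (Ndufc2) to 0.07 (Ndufaf5) with a median of -0.21, a ratio of 0.862, against a median of 0.00 over all genes tested. In 43 of the 45, or 95.6%, the value was below 0, where the share was 49.9% over all genes tested and 79% over those under 1000 bases. In bulk RNA, fewer muscle nuclei or fibres and less of these transcripts in each cannot be told apart.

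No member separated the groups completely: in 0 of 45 did every 1C-MIM library lie below every Control library, as it did in 7.98% of all genes tested, and in 0 of 45 above, as in 6.6% of all. The summed level of the 45 genes was 8663, 6573, 7012, 7016 and 7536 CPM in 1C-MIM 1 to 5, against 8099, 8318, 7841, 8362 and 9327 CPM in Control 1 to 5. The sums averaged 7360 ± 804 CPM in 1C-MIM and 8389 ± 563 CPM in Control (SD, n = 5 each), a ratio of 0.877. Thus 4 of 5 1C-MIM libraries lay below every Control library, 1C-MIM 1 lay above all Control libraries but Control 5, and Control 5 was the highest. The count of lower members followed the libraries: 28 without 1C-MIM 1, 5 without Control 4, 3 without 1C-MIM 2, and 2 without Control 5, 1C-MIM 3 or 1C-MIM 4. Without Control 1 and Control 5 together it was 0 (edgeR; 11 at an unadjusted p under 0.05). The share of all genes tested that was lower in these fits is not given here, so the counts do not show a shift particular to the members. Ndufc2 and Ndufaf3 were lower in all 10 fits that left out 1 library, and the other 8 in 3 to 7 of them.

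Per transcript length, the assembly factors were far less abundant than the subunits. The median level over all 10 libraries was 209.9 CPM per kilobase of transcript (CPM per kb) for core subunits, 222 CPM per kb for accessory subunits and 16.2 CPM per kb for assembly factors. Ndufa4, long counted as a complex I subunit and now placed in cytochrome c oxidase, was the most abundant at 694 CPM per kb. It was followed by Ndufb8, an accessory subunit of the distal membrane arm, at 615 CPM per kb and by Ndufb9, an accessory subunit of the LYR-motif family, at 572 CPM per kb. The lowest levels were those of Ndufa4l2, a paralog of Ndufa4 induced by low oxygen, at 6.88 CPM per kb, Ndufaf4 at 7.56 CPM per kb and Ndufaf7 at 8.44 CPM per kb. These levels use the transcript lengths recovered from the deposited tables, which for 7 members differ by more than 1.5 times from the matched GENCODE transcript. Ndufa11, for example, has 2661 bases in the deposited tables and 545 in GENCODE, so its 44.7 CPM per kb, the lowest of the accessory subunits, rests on the longer length.

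**Figure D1:**
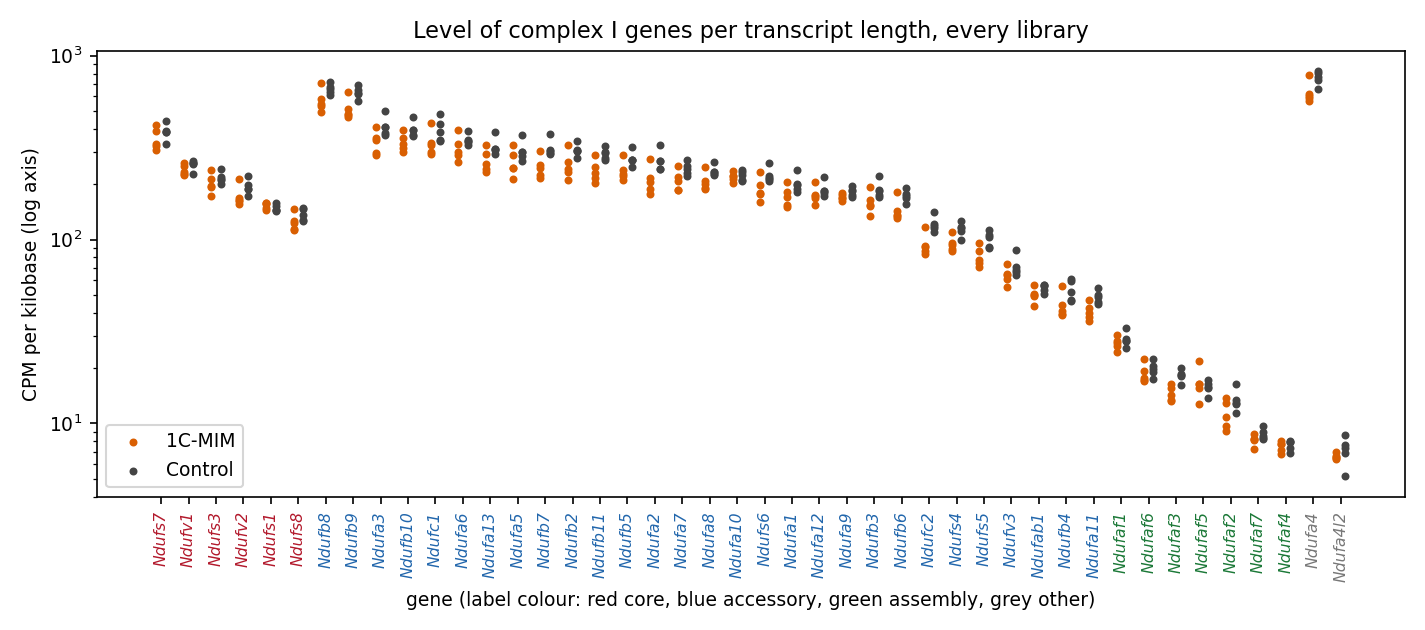
Level of 44 of the 45 genes in CPM per kilobase (log axis), 1 point per library, with 1C-MIM left of Control for each gene; genes are ordered by level within their role, given by label colour. All 7 assembly factors lie below the lowest core and accessory levels, and in none of the genes do all 5 1C-MIM points lie below all 5 Control points.

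The 7 core subunits, all of the matrix arm, had a median log2 fold change of -0.12. Ndufs7, which carries the last iron-sulfur cluster of the chain, had 319.6, 234, 252, 245 and 294 CPM in 1C-MIM 1 to 5, against 251, 295, 293, 292 and 333 CPM in Control 1 to 5. 1C-MIM 1, 1C-MIM 3 and 1C-MIM 5 lay within the Control range, whose lower end is Control 1 (log2 fold change -0.12 with SE 0.093, edgeR adjusted p = 0.357).

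Ndufv1, which binds NADH and the flavin that accepts its electrons, had 421, 360.2, 365, 373 and 402 CPM in 1C-MIM 1 to 5, against 365, 417, 421, 412 and 428 CPM in Control 1 to 5. 1C-MIM 2 alone lay below the Control range, whose lower end is again Control 1 (log2 fold change -0.09 with SE 0.063, edgeR adjusted p = 0.314). Ndufv2, the iron-sulfur subunit beside it, had 349, 256, 265, 269 and 276 CPM in 1C-MIM 1 to 5, against 326, 309, 281.04, 309 and 361 CPM in Control 1 to 5. Of its 1C-MIM libraries only 1C-MIM 1 reached the Control range (log2 fold change -0.16 with SE 0.088, edgeR adjusted p = 0.192).

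Ndufs1, the largest core subunit of the matrix arm and the carrier of several clusters, has the longest core transcript at 2927 bases and was the only core gene with a positive estimate. It had 463, 432, 423, 462 and 456 CPM in 1C-MIM 1 to 5, against 423, 461, 421, 448 and 423 CPM in Control 1 to 5. The groups covered nearly the same range (log2 fold change 0.04 with SE 0.052, edgeR adjusted p = 0.613). Ndufs8, which carries clusters next to Ndufs7, gave -0.15 on the log2 scale (edgeR adjusted p = 0.184), and Ndufs3, a core subunit without a cluster, gave -0.10 (edgeR adjusted p = 0.394).

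The 29 accessory subunits had a median log2 fold change of -0.24, and every estimate was below 0. Of these genes 8 were lower (27.6%), and 21 did not pass the test; 23 of the 29 have transcripts under 1000 bases, where 28.1% of all genes tested were lower. By place in the enzyme, 2 of 9 genes of the matrix arm, 3 of 9 of the proximal membrane arm and 3 of 10 of the distal membrane arm were lower, with medians of -0.21, -0.25 and -0.26. Ndufab1, the mitochondrial acyl carrier protein that binds LYR-motif subunits in both arms, makes the remaining gene.

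Ndufc2, a membrane-arm subunit that early assembly of that arm requires, had the largest decrease of all 45 genes. It had 79.3, 56.7, 59.05, 62.3 and 62.7 CPM in 1C-MIM 1 to 5, against 82.2, 78.5, 74.8, 80.7 and 95.6 CPM in Control 1 to 5. The 4 libraries 1C-MIM 2 to 5 lay between 56.7 and 62.7 CPM and below every Control library, while 1C-MIM 1 stood apart inside the Control range (log2 fold change -0.36 with SE 0.091, edgeR adjusted p = 0.0147). Over the 10 fits that left out 1 library its edgeR adjusted p was 0.00271 to 0.0454.

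The promoters of 3 genes are shown here because Ndufc2 and Ndufa11 are the 2 genes still called lower once the length trend was removed, and Ndufs4 joined them when GC content was taken out as well. Each runs from 250 bases before to 50 bases after the RefSeq gene start (RefSeq, GRCm38.p6), is written 5′ to 3′ on the gene's own strand, and has matches to the motifs described beside it in capitals.
Ndufc2, chr7:97399753-97400052, plus strand: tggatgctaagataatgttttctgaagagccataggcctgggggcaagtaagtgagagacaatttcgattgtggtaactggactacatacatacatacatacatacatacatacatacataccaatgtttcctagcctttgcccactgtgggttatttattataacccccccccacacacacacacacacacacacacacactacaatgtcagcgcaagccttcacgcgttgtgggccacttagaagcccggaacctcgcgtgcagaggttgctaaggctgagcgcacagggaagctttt
Ndufa11, chr17:56717512-56717811, plus strand: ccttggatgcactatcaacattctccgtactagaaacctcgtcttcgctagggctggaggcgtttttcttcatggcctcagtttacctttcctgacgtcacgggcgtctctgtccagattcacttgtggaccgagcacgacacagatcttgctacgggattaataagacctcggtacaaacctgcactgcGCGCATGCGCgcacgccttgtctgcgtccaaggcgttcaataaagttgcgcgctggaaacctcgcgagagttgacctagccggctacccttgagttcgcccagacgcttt
Ndufs4, chr13:114388045-114388344, minus strand: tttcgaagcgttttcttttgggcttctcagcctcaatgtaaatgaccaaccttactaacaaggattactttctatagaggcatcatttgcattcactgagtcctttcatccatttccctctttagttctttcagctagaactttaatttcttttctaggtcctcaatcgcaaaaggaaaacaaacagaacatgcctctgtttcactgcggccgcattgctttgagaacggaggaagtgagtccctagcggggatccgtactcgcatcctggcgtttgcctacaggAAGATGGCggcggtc

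The capitals mark GCGCA and GCGC with 1 base of any kind between them, a core of the NRF1 site, in Ndufa11 and AAGATGGC, a core of the YY1 site, in Ndufs4, while Ndufc2 has neither of them in its window. Promoters were found for 39 of the 45 genes and searched on both strands. Members are counted by gene, with a match in any promoter of the gene, whereas the backgrounds are counted by promoter. NRF1 (nuclear respiratory factor 1, a known activator of respiratory chain genes) had its motif in 9 of the 39, or 23.1%, against 4.6% of all 32851 promoters and 9.12% of the 13216 promoters of genes tested. The YY1 motif was in 7 of 39, or 17.9%, against 2.75% of all promoters and 4.03% of those of genes tested. CCGGAAG, an ETS-type site bound by GABP among others, was in 5 of 39, or 12.8%, against 8.86% and 15.9%. Of the 10 genes called lower, Ndufa11 and Ndufs5 hold the NRF1 motif, Ndufs4 the YY1 motif and Ndufb7 the ETS motif. A match describes the letters of this window and does not show that a factor binds there.

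Among the other lower accessory genes, Ndufa2, a small matrix-arm subunit with a thioredoxin-like fold, had 164, 107, 124, 113 and 129.6 CPM in 1C-MIM 1 to 5, against 161, 146, 146, 161 and 197 CPM in Control 1 to 5. 1C-MIM 1 lay above every Control library but Control 5, and the other 1C-MIM libraries lay below all of them (log2 fold change -0.35 with SE 0.11, edgeR adjusted p = 0.0447). Ndufb7, a twin-cysteine-motif subunit on the intermembrane side, had 161, 116, 131, 119 and 135 CPM in 1C-MIM 1 to 5, against 161, 163, 156, 157 and 200.1 CPM in Control 1 to 5. Control 5 stood apart at the top, and 1C-MIM 1 lay within the narrow range of the other Control libraries (log2 fold change -0.34 with SE 0.095, edgeR adjusted p = 0.0231).

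Ndufs5, another subunit of the intermembrane side, had 48.5, 35.96, 39.2, 38.1 and 44.0 CPM in 1C-MIM 1 to 5, against 52.8, 46.6, 46.0, 54.1 and 57.5 CPM in Control 1 to 5. All 1C-MIM libraries but 1C-MIM 1 lay below all Control libraries (log2 fold change -0.32 with SE 0.088, edgeR adjusted p = 0.022), and Ndufs5 is uncertain because its pseudogene Ndufs5-ps may share reads. Ndufb11, a single-pass subunit of the distal membrane arm, had 245, 172, 184, 196 and 211 CPM in 1C-MIM 1 to 5, against 255, 237, 231, 253 and 276 CPM in Control 1 to 5. The lowest Control library, Control 3, lay above 4 of 5 1C-MIM libraries (log2 fold change -0.31 with SE 0.087, edgeR adjusted p = 0.0228). Ndufb9, already named for its level, had 412, 302, 315, 308 and 335 CPM in 1C-MIM 1 to 5, against 423, 409, 367, 402 and 448 CPM in Control 1 to 5. 1C-MIM 1 lay inside the Control range and the others below it (log2 fold change -0.29 with SE 0.085, edgeR adjusted p = 0.0263).

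Ndufs4, a matrix-arm subunit whose loss in mice gives a model of Leigh syndrome, had 169.6, 133, 137, 147 and 142 CPM in 1C-MIM 1 to 5, against 179, 170.1, 153, 177 and 193 CPM in Control 1 to 5. 1C-MIM 1 exceeded Control 3 alone, and the other 1C-MIM libraries lay below all Control libraries (log2 fold change -0.26 with SE 0.077, edgeR adjusted p = 0.0285). Ndufa11, a membrane-arm subunit at the contact with complex III, had 125, 96.3, 106, 101 and 113 CPM in 1C-MIM 1 to 5, against 122, 132, 119, 129.7 and 145 CPM in Control 1 to 5. Again 4 of 5 1C-MIM libraries lay below all Control libraries, and 1C-MIM 1 lay just above the lowest 2 of them (log2 fold change -0.26 with SE 0.076, edgeR adjusted p = 0.0267). Reads of Ndufa11 could also be split with its copy Ndufa11b.

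The accessory genes with the smallest differences were Ndufa10, Ndufa12, Ndufa9, Ndufab1 and Ndufa6. Ndufa10, which resembles a nucleoside kinase, had 286, 258, 266, 246 and 268 CPM in 1C-MIM 1 to 5, against 255, 283.4, 253, 270.3 and 291 CPM in Control 1 to 5. 1C-MIM 4 lay below the Control range and the others within it (log2 fold change -0.03 with SE 0.059, edgeR adjusted p = 0.728). Ndufa12, a matrix-arm subunit, gave -0.10 on the log2 scale (edgeR adjusted p = 0.409) and Ndufa9, a dehydrogenase-like subunit that binds NADPH, gave -0.10 (edgeR adjusted p = 0.192). For Ndufab1 the estimate was -0.14 (edgeR adjusted p = 0.158) and for Ndufa6, a LYR-motif subunit that holds it, -0.15 (edgeR adjusted p = 0.256). The other 16 accessory genes ran from -0.29 (Ndufa3, edgeR adjusted p = 0.0635) to -0.16 (Ndufv3, edgeR adjusted p = 0.203). Copies listed as Ndufab1-ps, Ndufa12-ps, Ndufs6b, Ndufb4b and Ndufb4c leave the values of Ndufab1, Ndufa12, Ndufs6 and Ndufb4 uncertain in the same way.

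The accessory and core genes were also compared inside each library, where scaling between libraries cancels. The summed accessory level was 1.86, 1.70, 1.76, 1.70 and 1.72 times the core level in 1C-MIM 1 to 5, against 1.96, 1.79, 1.79, 1.84 and 2.00 times in Control 1 to 5. In 4 of 5 1C-MIM libraries the ratio lay below every Control library, and 1C-MIM 1 lay above 3 of the 5 Control libraries. The ratio averaged 1.75 ± 0.069 in 1C-MIM and 1.88 ± 0.098 in Control (SD, n = 5 each). The median transcript length was 602 bases for accessory genes and 1606 bases for core genes. Whether the ratio moves with the length slope given above was not tested.

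Ndufv3, a small accessory subunit beside Ndufv1, has a long and a short transcript in the tables, and the long one was kept by its count. The long transcript of 1579 bases holds a stretch of 1092 bases that the short one of 487 bases lacks. Its junctions are shown because counts on the stretch tell the 2 forms apart (GENCODE transcripts, GRCm38, chromosome 17, plus strand, 5′ to 3′); capitals mark the first and last 30 bases of the stretch.
Ndufv3 long form, start of the stretch: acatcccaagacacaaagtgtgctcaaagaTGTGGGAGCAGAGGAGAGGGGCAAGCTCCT
Ndufv3 long form, end of the stretch: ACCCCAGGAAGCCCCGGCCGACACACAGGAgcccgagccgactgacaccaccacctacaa
Ndufv3 short form, same place: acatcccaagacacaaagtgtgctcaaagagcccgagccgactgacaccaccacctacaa

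Nearly all Ndufv3 reads lay on the bases of the short form, which the long form shares. The short form had 3257, 2714, 2980, 2515 and 2969 counts in 1C-MIM 1 to 5, against 2880, 3321, 3289, 3238 and 3993 in Control 1 to 5, where the long form added 114, 83, 110, 112 and 93 counts in 1C-MIM and 90, 115, 117, 119 and 110 in Control. The added counts are the long form's count minus the short form's. A read that reaches from shared bases into the stretch may be counted for both forms, and this difference can miss it. By this difference, the long-only stretch was covered per base at 1.36 to 1.99% of the short form in 1C-MIM and at 1.23 to 1.64% in Control. The ranges of the groups overlapped, with the highest value in 1C-MIM 4 and the lowest in Control 5. The level per length of Ndufv3 computed with 1579 bases understates that of the short form.

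**Figure D2:**
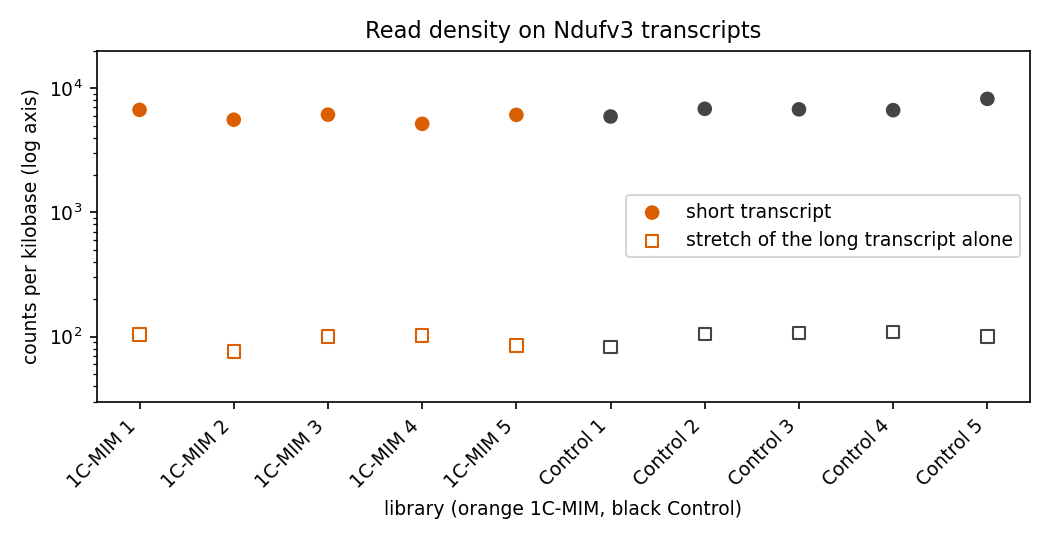
Read density on Ndufv3 in counts per kilobase (log axis) for the 10 libraries, 1C-MIM left of Control: filled circles show the short transcript and open squares the stretch found in the long transcript alone. In every library the squares lie far below the circles, at 1.23 to 1.99% of them.

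The 7 assembly factors had a median log2 fold change of -0.08, with 1 lower and 6 that did not pass. That is 14.3% lower, near the 11.8% over all genes tested. Ndufaf3, which works with Ndufaf4 on the ubiquinone module, had 17.5, 14.1, 14.2, 15.3 and 16.7 CPM in 1C-MIM 1 to 5, against 19.4, 19.8, 17.3, 19.7 and 21.3 CPM in Control 1 to 5. All 1C-MIM libraries but 1C-MIM 1 lay below every Control library, and 1C-MIM 1 exceeded Control 3 alone (log2 fold change -0.32 with SE 0.079, edgeR adjusted p = 0.0128). Over the 10 fits that left out 1 library its edgeR adjusted p was 0.00855 to 0.0417. Ndufaf4 had 28.05, 29.2, 26.2, 27.9 and 24.6 CPM in 1C-MIM 1 to 5, against 28.8, 26.8, 25.1, 28.9 and 28.8 CPM in Control 1 to 5, and its groups overlapped throughout (log2 fold change -0.03 with SE 0.065, edgeR adjusted p = 0.798). The partners therefore had different calls, though the difference between them was not tested.

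Ndufaf2, a paralog of Ndufa12 that occupies its place in assembly intermediates, had 9.33, 6.22, 6.61, 7.34 and 8.73 CPM in 1C-MIM 1 to 5, against 8.66, 8.77, 7.72, 9.14 and 11.1 CPM in Control 1 to 5. 1C-MIM 2, 3 and 4 lay below all Control libraries and the other 2 within their range (log2 fold change -0.25 with SE 0.13, edgeR adjusted p = 0.166). Ndufaf1, part of the complex that builds the membrane arm, gave -0.07 on the log2 scale (edgeR adjusted p = 0.499). Ndufaf6, a factor needed early in assembly, gave -0.08 (edgeR adjusted p = 0.507).

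Ndufaf5 and Ndufaf7 are methyltransferases that modify core subunits; in human cells Ndufaf5 acts on an arginine of NDUFS7. Ndufaf5 had the highest estimate of all 45 genes and 59.7, 34.9, 44.5, 42.5 and 44.9 CPM in 1C-MIM 1 to 5, against 44.7, 43.2, 37.7, 42.5 and 47.1 CPM in Control 1 to 5. That estimate rests on 1C-MIM 1, the highest library of either group, while 1C-MIM 2 was the lowest (log2 fold change 0.07 with SE 0.11, edgeR adjusted p = 0.667); without 1 library in turn the value ran from -0.04 to 0.15. Ndufaf7 gave -0.11 (edgeR adjusted p = 0.283). A further 17 assembly factors without an Nduf symbol had a median of -0.05, with 2 lower (11.8%) and 0 higher. The share lower was the same as over all genes tested, 11.8%. The 2 were Chchd4, an import protein of the intermembrane space, at -0.28 (edgeR adjusted p = 0.013), and Tmem261, at -0.27 (edgeR adjusted p = 0.0257). With the length trend removed, neither was called: Chchd4 had -0.12 (edgeR adjusted p = 0.147) and Tmem261 -0.07 (edgeR adjusted p = 0.366).

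Ndufa4 had 385, 278, 288, 304 and 299 CPM in 1C-MIM 1 to 5, against 406, 362, 323, 375 and 396 CPM in Control 1 to 5. 1C-MIM 1 lay within the Control range and the other 4 below it, and the test just missed the threshold (log2 fold change -0.26 with SE 0.089, edgeR adjusted p = 0.0512). Ndufa4l2, near the bottom of the range at 6.88 CPM per kb, had 6.39, 6.18, 6.71, 6.24 and 6.32 CPM in 1C-MIM 1 to 5, against 4.96, 7.08, 8.37, 6.67 and 7.37 CPM in Control 1 to 5. Its 1C-MIM values were tightly grouped inside the wide Control range (log2 fold change -0.11 with SE 0.12, edgeR adjusted p = 0.498).

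**Figure D3:**
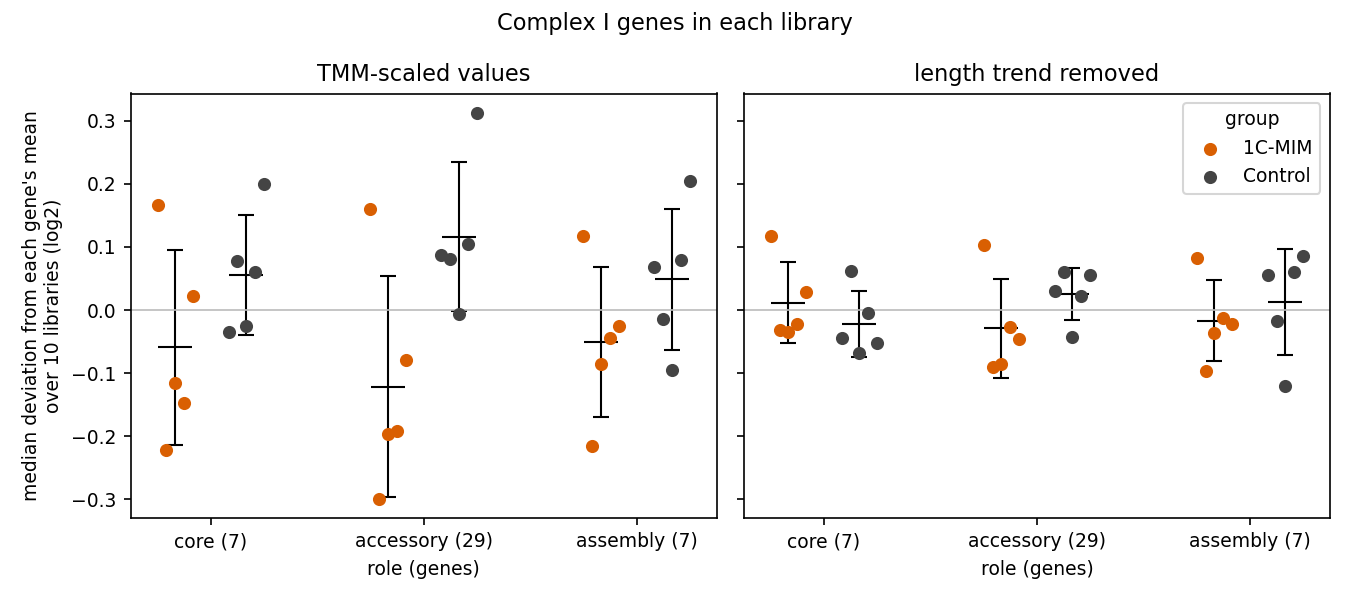
Median deviation of the core, accessory and assembly genes from each gene's mean over the 10 libraries (log2), 1 point per library, 1C-MIM left of Control, with group mean and SD as black bars; the left panel shows TMM-scaled values and the right panel the values after each library's length trend was removed. On the left, 4 of 5 1C-MIM libraries lie below all Control libraries for the accessory genes and 1C-MIM 1 lies high; on the right the group means (1C-MIM minus Control) differ by -0.05 for accessory, 0.03 for core and -0.03 for assembly genes.

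Transcript length went with the fold changes. The 28 genes under 1000 bases had a median log2 fold change of -0.23 with 6 lower (21.4%), against a median of -0.21 and 28.1% lower over all 1120 genes tested of that length. The 17 genes of 1000 bases or more had a median of -0.11 with 4 lower (23.5%). The 12760 genes tested of 1000 bases or more had a median of 0.02 and 10.4% lower, but they include many longer transcripts. From 1000 to under 1500 bases, 1 of 7 members was lower (median -0.10), against 22.9% of all genes tested (median -0.15). From 1500 to under 2000 bases it was 2 of 5 (median -0.16), against 16.1% (median -0.09). From 2000 to under 4000 bases it was 1 of 5 (median -0.03), against 10.2% (median 0.01). That 1 gene is Ndufa11, placed there by its deposited length. Over the 45 genes, fold change and length had a Spearman correlation of 0.54 and a Pearson correlation of 0.61 with log2 length. Within the roles the values were weaker, at 0.24 and 0.27 for the 29 accessory genes and 0.21 and 0.47 for the 7 core genes. These correlations are across genes, which share the same 10 libraries and are not independent replicates. Over all 13880 genes the values were 0.44 and 0.31.

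Each gene was then set beside the non-member genes within 10% of its length. Of 45 members, 40 lay between the quartiles of those genes, 4 below the lower quartile and 1 above the upper quartile. Below lay Ndufc2 (-0.36 against a median of -0.20 over 216 genes), Ndufa11 (-0.26 against -0.01 over 1678), Ndufs4 (-0.26 against -0.11 over 952) and Ndufaf3 (-0.32 against -0.18 over 551). Above lay Ndufa10, at -0.03 against -0.16 over 689 genes. The place of Ndufa11 rests on its deposited 2661 bases, where the matched GENCODE transcript has 545. Near that shorter length, the 133 genes within 10% of 549 bases had a median of -0.28 and quartiles of -0.38 and -0.11.

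**Figure D4:**
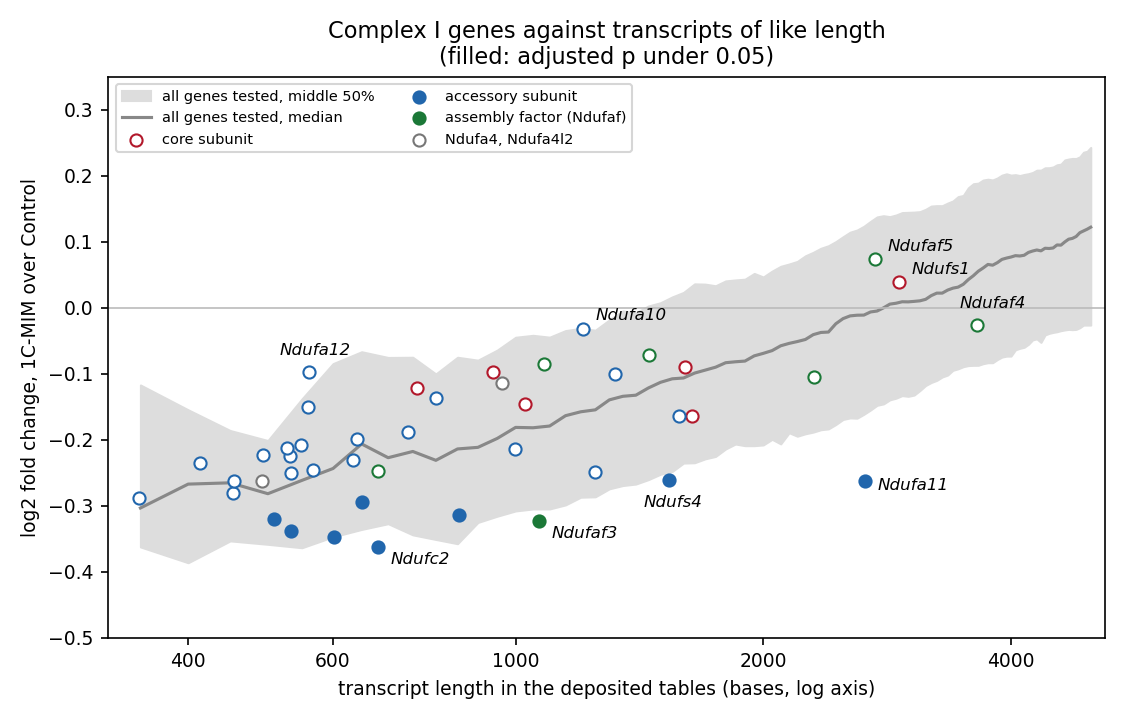
Log2 fold change of 44 of the 45 genes (1C-MIM over Control) against transcript length in bases (log axis), coloured by role and filled where the edgeR adjusted p was under 0.05; the grey line and band give the median and the middle 50% of all genes tested within 10% of each length. Most members follow the grey line upward from short to long transcripts, with Ndufa11, Ndufs4, Ndufaf3 and Ndufc2 under the band. Ndufa11 is drawn at its deposited 2661 bases, against 545 in GENCODE.

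With each library's trend on length removed, 2 of the 10 genes called lower before were still called. Then 2 of 45 genes were lower (4.44%) and 0 higher, against 9.31% lower and 6.95% higher over all genes tested, and at an unadjusted p under 0.05 8 members were lower and 2 higher. The median of the members was -0.04, and 30 of 45 (66.7%) were below 0, against 49.1% over all genes tested. The roles' medians were 0.03 for core, -0.05 for accessory and -0.05 for assembly genes. Ndufa11 kept a log2 fold change of -0.25 (edgeR adjusted p = 0.0217) and Ndufc2 one of -0.17 (edgeR adjusted p = 0.0424). The other 7 genes named above as lower lay between -0.15 (Ndufa2, edgeR adjusted p = 0.106) and -0.10 (Ndufb9, edgeR adjusted p = 0.199).

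These 2 calls depend on the libraries and, for Ndufa11, on its length. Without Control 5, without 1C-MIM 3 and without 1C-MIM 4, 0 members were lower after removal of the trend (6, 3 and 6 at an unadjusted p under 0.05), and 5 were lower without 1C-MIM 1. With GENCODE lengths and the short Ndufv3 form, an alternative chosen after the data were seen, Ndufa11 had -0.08 (edgeR adjusted p = 0.218), and Ndufc2 (-0.17, edgeR adjusted p = 0.0358) and Ndufaf3 (-0.19, edgeR adjusted p = 0.0443) were lower. Whether the length trend arose in the muscle or in handling of the RNA and libraries was not tested, and the removal takes out either.

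**Figure D5:**
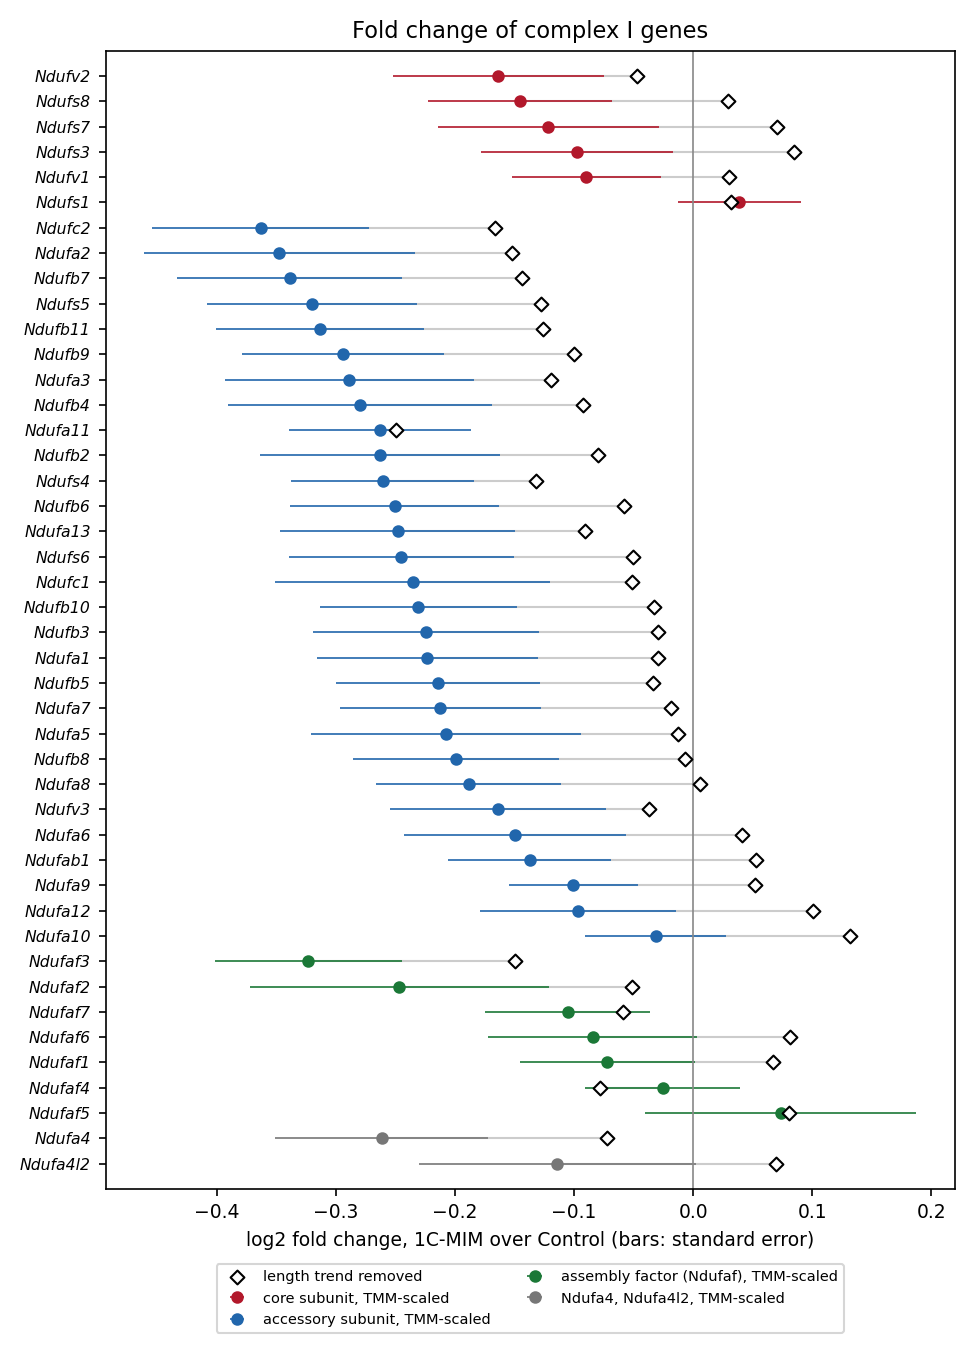
Log2 fold change (1C-MIM over Control) of 44 of the 45 genes, ordered by value within role: coloured circles with standard error bars from TMM-scaled counts, and open diamonds after removal of the length trend. Nearly all circles lie left of 0, from -0.36 for Ndufc2 to 0.07 for Ndufaf5; the diamonds lie about 0, with Ndufa11 farthest left at -0.25.

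Other lists of mitochondrial and ribosomal genes were set against the same 11.8% lower over all genes tested and 28.1% over those under 1000 bases. Of the other respiratory complexes, 8 of 13 complex IV subunits (61.5%) were lower with a median log2 fold change of -0.29, 3 of 9 complex III subunits (33.3%) with -0.16, 4 of 15 ATP synthase subunits (26.7%) with -0.19 and 1 of 6 complex II genes (16.7%) with -0.10, with 0 higher in each. Cytosolic ribosomal proteins, which are not mitochondrial and have a median length of 681.5 bases, had 37 of 80 lower (46.2%) and a median of -0.27. Mitochondrial ribosomal proteins, with a median length of 1053 bases, had 23 of 77 lower (29.9%) and a median of -0.18. In the list of mitochondrial mass and biogenesis genes, whose median length is 3207.5 bases, 1 of 12 was lower with a median of -0.02. After removal of the length trend, 2 complex IV, 0 complex III, 3 ATP synthase and 0 complex II genes were lower, as were 13 of 80 cytosolic (16.2%) and 8 of 77 mitochondrial ribosomal proteins (10.4%), against 9.31% over all genes tested.

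Markers of some other cells and fibres also differed between the groups, where 11.8% of all genes tested were lower and 9.78% higher. Macrophage markers summed to 149 to 204 CPM in 1C-MIM and 268 to 508 CPM in Control, with 10 of 11 lower, and fibroblast and matrix markers to 635 to 1060 CPM in 1C-MIM and 956 to 1436 CPM in Control, with 5 of 7 lower. Slow myofibre markers summed to 96.1 to 127 CPM in 1C-MIM and 118 to 182 CPM in Control, with 4 of 8 lower, and fast markers had 2 of 9 higher and 0 lower. Vascular markers summed to 385 to 507 CPM in 1C-MIM and 342 to 385 CPM in Control, with 4 of 7 higher. Adipocyte markers had 1 of 6 higher and 1 lower, and neural markers 1 of 7 higher. Their part in the complex I differences was not tested. 1C-MIM 1, the library with the highest complex I levels of its group, had the lowest macrophage and slow-fibre sums of all 10 libraries.

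The libraries fall into animal numbers of 2 series, with 1C-MIM 1 to 3 and Control 1 to 3 in the 200s and 1C-MIM 4 and 5 and Control 4 and 5 in the 300s. Within the 200s the median log2 fold change of the members was -0.12 and 0 were lower (edgeR; 1 at an unadjusted p under 0.05). Within the 300s it was -0.33, again with 0 lower (29 at an unadjusted p under 0.05). With the series as a term in the fit, 9 members were lower. The direction of the median was the same in both series, and their difference was not tested.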

How the data were processed

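Each animal has 1 deposited table with 3 values for 33984 RefSeq transcripts: per the file headers, the count, FPKM and TPM. Active Motif extracted total RNA of quadriceps and made the libraries, per the labels. The submitters' processing notes list STAR, featureCounts and Subread 2.0.1, Trim Galore 0.6.7, StringTie 2.2.1, Salmon 1.5.2, SAMtools 1.15.1, Picard 2.27.4, bedtools 2.30.0, DESeq2 1.28.0 and the build GRCm39, with no role or order; no source used here gives the strand setting of the counting. The deposited counts are whole numbers that the authors did not normalize, and a read shared by isoforms is counted for each. The deposited FPKM values, scaled by the authors per kilobase and library, gave transcript lengths (100% whole numbers within 0.01 base); the deposited TPM values, which the authors scaled for length to a fixed total, were not used.

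One transcript per symbol was kept, and genes were filtered (filterByExpr), scaled (TMM) and compared with edgeR 4.0.16 in R 4.3.3 (glmQLFit, robust, and glmQLFTest), with Benjamini-Hochberg adjustment over 13880 genes. CPM values are TMM-scaled; log2 values use a prior count of 2; SE is the fold change divided by the square root of the test's F. Library totals of 28521254 to 31771296 counts set the counting precision, and the tests use the spread between libraries, which may be partly technical. The length trend is a natural spline with 3 inner knots on log length in each library, centred and entered as offsets. Members, roles, lists, tests and the rule for genes named singly (all core, Ndufaf, Ndufa4, Ndufa4l2 and Ndufab1 genes, the 5 lowest and 5 highest accessory fold changes, the 3 highest and 3 lowest levels, genes whose call changes with the length trend, and the 3 smallest p of other lists) were chosen with earlier results of these data known. Of the other lists, only those genes that a result turns on are named. One gene that the rule names is not reported here singly. Alternatives were DESeq2 1.42.0, limma-voom (limma 3.58.1), other scalings and filters, blocks, summed transcripts and left-out libraries. The script was tested on simulated counts.

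Replicate numbers are not said to pair animals: deviations of same-numbered libraries correlated at -0.075, 0.119, 0.064, 0.119 and 0.387, not all over 0.1, so no block was used. Promoter coordinates are those of RefSeq on GRCm38.p6, and no other coordinates are given because the files use GRCm39.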

Additional observations from a re-analysis of the deposited data

Results flagged for a closer look

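In 102 groups of 5 libraries (the CPM of each of the 45 genes in 1C-MIM and in Control, and library sums and slopes), 12 held 1 library whose gap to the nearest other library exceeded Dixon's 95% critical value of 0.71; chance does so in about 1 of 20 groups. In Control 5 the value stood apart on the high side for Ndufb7 (200.1 CPM, others 156 to 163), Ndufa13 (481 CPM, others 362 to 388), Ndufs6 (149 CPM, others 118 to 126), Ndufa8 (195 CPM, others 167 to 173), Ndufv3 (138 CPM, others 102 to 112) and Ndufa12 (123 CPM, others 96.8 to 103). The slope of deviation on log2 length over non-member genes was also apart in Control 5, at -0.145 against -0.0487 to -0.0126 in the other Control libraries.

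In 1C-MIM 1 the value stood apart on the high side for Ndufc2 (79.3 CPM, others 56.7 to 62.7), Ndufb6 (97.1 CPM, others 70.1 to 75.9), Ndufv2 (349 CPM, others 256 to 276) and Ndufa4 (385 CPM, others 278 to 304). In Control 1 it stood apart on the low side for Ndufv1 (365 CPM, others 412 to 428). The genes share these libraries, so the 12 cases are not independent of each other.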

How the results depend on the processing

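Against 10 lower and 0 higher members and a median log2 fold change of -0.21, the count lower was 31 with library totals, 0 without Control 1 and Control 5 together, 0 within either animal series and 2 to 28 over the fits that left out 1 library. With the length trend removed it was 2 (median -0.0373), or 2 with GENCODE lengths (median -0.0422), 3 with 1 higher when GC content was removed too (median -0.0616) and 0 without Control 1 and Control 5 together (median -0.0208). Without 1 library in turn it was then 0 to 5, with 0 to 1 higher; the median ran from -0.0674 to -0.0205 in these fits and from -0.287 to -0.151 with the trend kept. The cause of these shifts was not tested. Library totals with the length trend removed gave 13 lower. DESeq2 size factors, DESeq2, limma-voom, no filter, the series term and summed transcripts gave 8 to 14 lower and 0 higher. The 1 member that passed the test with the opposite sign was Ndufa10, not called before: 0.135 with length and GC trends removed and 0.165 with the length trend removed without Control 2. Over all fits without 1 library it ran from -0.0564 to 0.165.

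With replicate number as a block, 21 members were lower and 0 higher (median -0.22); with the block and the length trend removed, 2 were lower and 1, Ndufa10 at 0.132, was higher (median -0.0365). For the block and for left-out libraries, the share lower over all genes tested is not given here. Libraries matched their own number best in 2 of 5 cases. Added after seeing the data were the length-removed fits without single libraries or without Control 1 and Control 5, with library totals and with GENCODE lengths. All 45 members passed the filter on low counts, the lowest level being that of Ndufa4l2 at 6.88 CPM per kb, and the tests rest on 5 libraries a group.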
